A study of Apis mellifera with 2 samples.

Results

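The genes described here were locus-number genes of the honey bee Apis mellifera that stood far higher in a larval than in an adult library of hemocytes. Locus-number genes are those that RefSeq lists under LOC and a number, without a symbol. A gene was included when the larval library held at least 10 scaled CPM (counts relative to a library size adjusted by TMM, a scaling that assumes most genes equal) and at least 4 times the adult level, with 0.5 counts added to each library. This selected 270 of 9537 locus-number genes, of 9935 genes in all. The background share is therefore 2.83% of locus-number genes, or 4.28% of the 6307 with at least 10 larval CPM, and it is fixed by the rule. The larval and adult levels chose these genes, so they are given as a description without a test.

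Both libraries came from hemocytes of Apis mellifera carnica, without any treatment, mutation or transgene named in the labels. The adult group was 1 library from bees collected at 24 h intervals after emerging from closed brood at 34 °C, and the design calls them nurse bees under 1 day old. The larval group was 1 library from worker larvae 8 days old, in instar 5. Each RNA preparation came from the cells of 320 µL of hemolymph. How many insects were pooled is not stated in the labels. With 1 library in each group there was no replicate check, and all differences are between these libraries. Intervals given below are exact 95% intervals that cover counting error only.

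Hemocytes are the circulating cells of the insect blood, known for phagocytosis, encapsulation, clotting and melanization. In the last larval instar a bee feeds and grows before pupation, and its hemolymph carries large amounts of storage proteins made by the fat body, while a newly emerged bee has completed metamorphosis. A locus number says that no symbol has been assigned, not that a protein has no known function. The gene table used here pairs none of the 270 genes with a synonym or a product, so no role is given to them. What can be read is how abundant they were, how far they were reduced in the adult library, how long and how divided their coding sequences are, and which genes stand beside them.

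The larval library held 17657461 and the adult library 16880780 estimated counts over coding sequences. PPO, the prophenoloxidase of hemocytes and the single hemocyte marker listed, stood at 28019 CPM in the larval and 14041 CPM in the adult library. Of 7 fat body genes, 6 were higher in the larval library, and all 7 summed to 6888 CPM in the larval against 190 CPM in the adult library. Vg went the other way, at 0.32 larval against 119.7 adult CPM, most of the adult sum. Hex110 and HEX70b, at 4002 and 2034 CPM, made up most of the larval sum. The 4 silk gland genes summed to 53.7 against 10.1 CPM and the 2 muscle genes to 31.3 against 21.4 CPM, while the neuronal gene Syt1 stood at 244 against 1094 CPM. None of these markers was at 0 in either library. Their part in the levels of the 270 genes was not tested, and in such bulk libraries fewer cells of a type and less RNA per cell cannot be told apart.

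Together the 270 genes held 6.69% of the larval counts (exact binomial interval 6.68 to 6.71) and 1.30% of the adult counts (exact binomial interval 1.299 to 1.309). Their larval levels ran from 10.04 to 8629 CPM with a median of 90.2 CPM. Their adult levels ran from 0 to 1299 CPM with a median of 11.4 CPM. The other 6037 locus-number genes with at least 10 larval CPM had medians of 61.0 larval and 59.3 adult CPM. The 5 most abundant of the 270 genes carried 34.9% of the group's larval counts and 31.8% of its adult counts. The same rule selected 25 of 398 genes with a symbol, or 6.28%, and turned around it selected 325 locus-number genes as far higher in the adult library, or 3.41%.

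**Figure D1:**
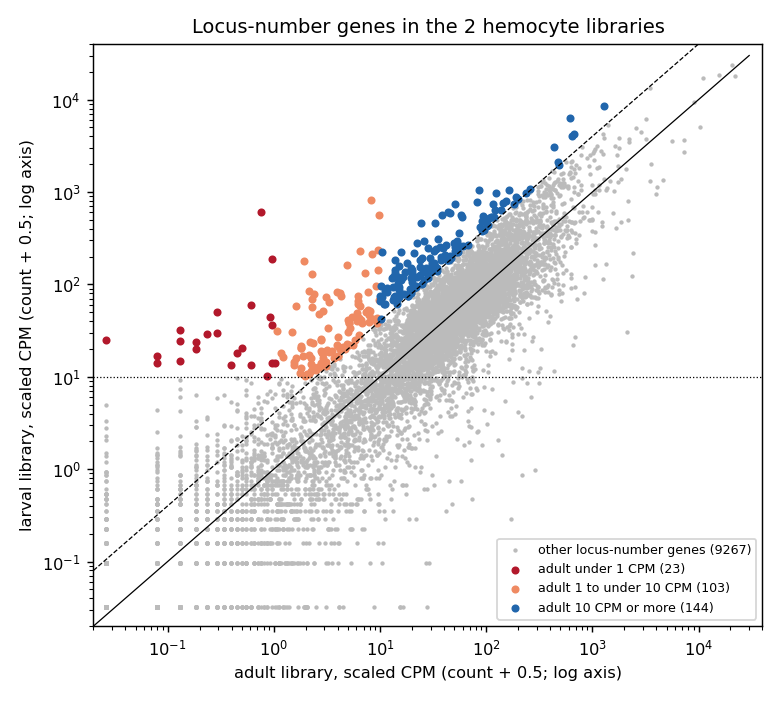
Scaled CPM of each locus-number gene in the adult library (x axis) and in the larval library (y axis), both on log axes with 0.5 counts added. The solid line marks equal levels, the dashed line 4 times the adult level and the dotted line 10 larval CPM. The 270 selected genes are coloured by their adult level, and 144 of them stood at 10 CPM or more in the adult library too.

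The most abundant of the genes were expressed at both stages. LOC408388 had 134998 larval and 24741 adult counts, which is 8629 against 1299 CPM. It ranked 12 among all genes of the larval library and 54 in the adult library, and the ratio of scaled CPM was 6.64 (interval 6.56 to 6.74). LOC550827 had 98340 larval and 11767 adult counts, 6286 against 618 CPM, a ratio of 10.2 (interval 9.98 to 10.4). These 2 genes have 1 coding sequence each, of the same length of 1353 bases. Their estimated counts were listed as whole numbers in both libraries. Counts this large are listed with few or no decimals, so this does not test whether reads were shared. The 2 genes do not adjoin each other in gene order.

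Next in abundance came LOC412663 at 4277 against 678 CPM, LOC100576745 at 4070 against 646 CPM and LOC100576279 at 3090 against 437 CPM. Their ratios lay close together at 6.31, 6.30 and 7.06. LOC552283 at 2127 against 478 CPM and LOC409114 at 1978 against 483 CPM had lower ratios of 4.45 and 4.10. Of the 100 highest genes of the larval library by CPM, 7 were among the 270, and only LOC408388 of these was also among the 100 highest of the adult library. The rule demands at least 4 times the adult level, so a small overlap is largely built in. The overlap among the other highest genes was not counted. The remaining genes in the first 15 by larval CPM ran from LOC413470 at 1084 CPM to LOC408579 at 815 CPM. LOC408579 was the exception in this set, since it stood at 8.14 CPM in the adult library, while the lowest of the others, LOC408623, had 85.0 CPM there.

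The order by level depends on whether length is taken into account. The authors' TPM is a level per length, while CPM is not. LOC412663, with a coding sequence of 10998 bases, ranked 20 by larval CPM but 717 by larval TPM, at 205 TPM. LOC552322, with 408 bases, stood at 978 CPM and at 3643 TPM in the larval library, rank 38 by TPM. By larval TPM the leading genes were LOC408388 at 4147 TPM, LOC552322, LOC100576745 at 3326 TPM and LOC550827 at 3021 TPM, so short coding sequences joined the most abundant ones. The shortest of the 270, LOC726047 with 240 bases, had 81.8 CPM but 1201 TPM. It was named after its values were seen, and TPM of such short sequences rests on a small effective length.

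Within the group as selected, a complete switch between the libraries was rare. The count depends on the 10 CPM minimum, under which 250 locus-number genes with a 4-fold difference lay. The share below 1 adult CPM over all locus-number genes was not counted. Among the other 6037 locus-number genes with at least 10 larval CPM, the lowest adult level was 3.04 CPM, which the rule largely sets. Only 23 of the 270 genes were below 1 CPM in the adult library, 103 stood between 1 and 10 CPM, and 144 at 10 CPM or more. LOC550965 alone had 0 adult counts, for which the floor of 3 counts is 0.157 CPM, and 7 genes had 1 to 3 adult counts. The other 262 genes had more than 3 adult counts. The fold with the added 0.5 counts was under 8 for 173 genes, or 64.1%, and 16 or more for 45 genes. In the genes at 10 adult CPM or more it ran from 4.02 to 21.5 with a median of 5.38. In those below 1 adult CPM it ran from 11.6 to 949 with a median of 108, and the median of their larval levels was 23.5 CPM. The classes are cut on adult CPM, which the rule also used. These contrasts in fold and larval level thus follow largely from the cuts, and nothing is read from them.

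**Figure D2:**
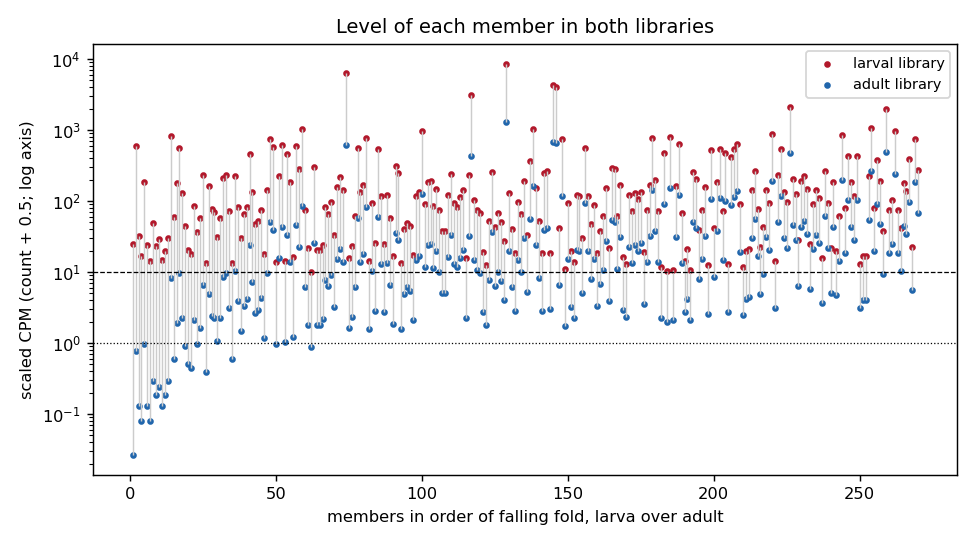
Scaled CPM (log axis, 0.5 counts added) of the 270 genes in the larval library (red) and the adult library (blue), in order of falling fold from left to right. Dotted and dashed lines mark 1 and 10 CPM. Adult points lie below 1 CPM mainly at the left, and 144 lie at 10 CPM or more.

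LOC410747 combined a high larval level with near absence in the adult library. It had 9439 larval counts against 14 adult counts, or 603 against 0.735 CPM, a ratio of 821 (interval 489 to 1502). LOC550965 had 389 larval counts, 24.9 CPM, against 0 adult counts, which gives 158-fold when the adult library is set at a floor of 3 counts. The lower end of its exact interval was below that, at 128. LOC410380 followed with 2932 larval counts against 18 adult counts, 187 against 0.945 CPM, a ratio of 198 (interval 125 to 335). LOC410747 and LOC410380 were the 2 genes at 100 larval CPM or more that stood below 1 CPM in the adult library.

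Several of the widest folds rest on few counts. LOC724900 and LOC552558 had 1 adult count each beside 260 and 221 larval counts, and their ratios of 317 and 269 had intervals of 56.3 to 12554 and 47.8 to 10678. LOC102656248, LOC100577614 and LOC102654436 had 2 adult counts each beside 497, 379 and 234 larval counts. LOC102654448 and LOC724664 had 3 adult counts each beside 368 and 311 larval counts. Their larval levels lay between 14.1 and 31.8 CPM, so the group with the widest folds was mostly of low abundance. LOC100577847, LOC410756 and LOC409827 had 5, 4 and 5 adult counts and larval levels of 49.6, 28.7 and 29.9 CPM.

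Other genes with a wide ratio had more adult counts than those, though LOC726886, LOC551510 and LOC409981 also stood below 1 adult CPM. LOC408579 had 12757 larval and 155 adult counts, 815 against 8.14 CPM, a ratio of 100.2 (interval 85.5 to 118). LOC410685 had 8806 larval and 186 adult counts, 563 against 9.76 CPM, a ratio of 57.7 (interval 49.9 to 67.0). LOC100577382 stood at 180 against 1.89 CPM, a ratio of 95.1, and LOC726886 at 59.8 against 0.577 CPM, a ratio of 104. LOC551510 had 695 larval against 17 adult counts and LOC409981 had 320 against 9, with ratios of 49.8 and 43.3. Their adult levels were 0.892 and 0.472 CPM, so these ratios too rest on few adult counts. Among genes with at least 300 larval CPM, 4 reached a fold of 16 or more: LOC410747, LOC408579, LOC410685 and LOC726690.

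The share of genes that met the rule varied with the larval level. It was 4.56% of the 1469 locus-number genes with 10 to 30 larval CPM, 2.70% of 2892 with 30 to 100 CPM, 5.60% of 1411 with 100 to 300 CPM and 8.60% of 535 with 300 CPM or more. The median fold in these 4 levels was 6.71, 6.90, 6.10 and 6.12, and Spearman's rho between fold and larval CPM over the 270 genes was -0.13. Both values were used by the rule, which leaves out folds under 4, so nothing is read from these figures. Genes below 1 adult CPM numbered 16 in the lowest level, 5 in the next, and 1 in each of the upper levels. The 10 CPM minimum itself keeps out 35 genes with 4-fold differences at 5 to 10 larval CPM.

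Values near the thresholds show how the group is bounded. The lowest folds inside it were 4.02 for LOC410414, LOC551275 and LOC725404, at 269.7, 736 and 22.2 larval CPM. Just outside were LOC726227, LOC724643 and LOC725718 with folds of 4.00, 3.99 and 3.97. At the level threshold, LOC725952, LOC725091 and LOC113219417 stood at 10.04, 10.2 and 10.7 larval CPM, while LOC410555, LOC725646 and LOC552099 just missed it at 9.65, 9.33 and 9.27 CPM. For 218 of the 270 genes the whole counting interval of the ratio lay at 4 or more, and for 52 it reached below 4.

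In the authors' TPM, to which no TMM factor was applied, all 270 genes were higher in the larval library, 1 of them listed at 0 in the adult. TPM rests on the same counts that selected the genes, so this side was nearly set beforehand. The lowest TPM ratio was 2.72, for LOC726997, and 157 genes had a TPM ratio of at least 4 or an adult TPM of 0. Applied to TPM, the rule selected 128 locus-number genes, 121 of them among the 270. Of all locus-number genes far higher in either library, TMM scaling put 45.4% on the larval side, plain totals put 27.5% there and TPM 19.4%. The median log2 fold of larva over adult across all genes whose summed count reached 10 was -0.02, -0.37 and -0.55 under these 3 scalings.

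Coding length in the group was close to that of other genes in the middle and narrower at both ends. The median of the longest coding sequence was 1500 bases, with quartiles of 1066 and 2177 bases, against 1437 bases (quartiles 864 and 2361) in the other locus-number genes with at least 10 larval CPM. Coding sequences under 600 bases made up 5.93% of the group (16 genes) and 12.8% of the others. Those of 3000 bases or more made up 12.2% (33 genes) and 16.5%. The 325 genes far higher in the adult library were longer, with a median of 1716 bases and 24.0% at 3000 bases or more. These lengths hold no untranslated regions, and no test was made since genes are not replicates.

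**Figure D3:**
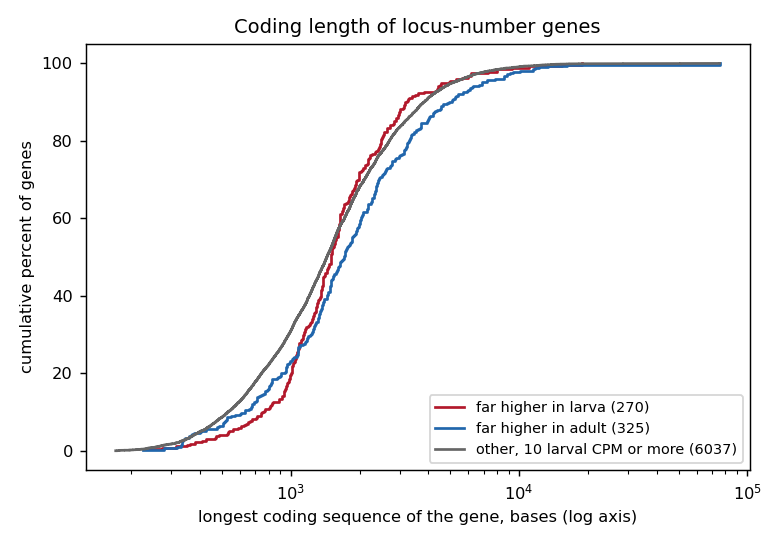
Cumulative percent of genes (y axis) by the longest coding sequence in bases (x axis, log) for the 270 genes far higher in larva, the 325 far higher in adult and the other 6037 locus-number genes with 10 larval CPM or more. The larval curve starts later than the others, with 5.93% of genes under 600 bases.

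Inside the group, length was also described by adult and by larval level. The 23 genes below 1 adult CPM had a median of 1935 bases, the 103 between 1 and 10 CPM 1551 bases, and the 144 at 10 CPM or more 1416 bases. These classes are cut on adult CPM, which the rule used and which is not divided by length, so nothing is read from their medians. By larval level, the median was 1500 bases in the group against 1298 in the other genes at 10 to 30 CPM, and 1628 against 1458 at 30 to 100 CPM. It was 1497 against 1568 bases at 100 to 300 CPM, where the order turned, and 1400 against 1350 at 300 CPM or more. Across the 270 genes, Spearman's rho between fold and length was 0.17, and between larval CPM and length -0.04, which are descriptions over genes of the same libraries. The longest coding sequences were those of LOC725131 with 18939 bases at 15.9 larval CPM and LOC408680 with 15429 bases at 132 larval CPM, both named after their values were seen.

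The number of coding sequences per gene was much like that of other genes. A single coding sequence was annotated for 139 of the 270 genes (51.5%), against 50.8% of the other locus-number genes and 36.6% of the genes far higher in the adult library. At least 5 were annotated for 10% of the group (27 genes), 11.2% of the others and 24.0% of the adult-side genes. Among the 23 genes below 1 adult CPM, 7 had a single coding sequence, against 80 of the 144 genes at 10 adult CPM or more. These classes are cut on adult CPM, which the rule used, so nothing is read from this contrast. The most divided genes were LOC725894 with 15 coding sequences and LOC408586 with 14, at 23.1 and 14.1 larval CPM, named after their values were seen.

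Of the 131 genes with several coding sequences, 83 had at least 20 adult counts and a single leading sequence in each library, so the leader could be compared. In 39 genes the leading sequences were tied within 0.001 of the gene's counts in at least 1 library. LOC410747 was one of these, with each of its 3 coding sequences at 33.3% in both libraries. In 72 of the 83 genes the same coding sequence led in both libraries, and in 21 of these it held at least 90% of the counts in both. The median share of the leader was 86.1% in the larval and 85.5% in the adult library. The median shift of counts between a gene's coding sequences was 9.48 percentage points. Leaders and shifts were not computed for genes outside the group, so these figures are not read as particular to it.

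The leading coding sequence differed in 11 genes. Only ties within 0.001 were set aside, so some of these leads were narrow. The adult leaders had 231 against 222 estimated counts in LOC408955, 42.9 against 37.1 in LOC409636 and 26.7 against 22.3 in LOC409510. In LOC408955 a sequence of 1506 bases held 97.4% of the larval counts and 48.9% of the adult counts, while one of 1254 bases held 51.1% of the adult and 2.55% of the larval counts. The shorter sequence had 231 estimated adult counts and 73.7 larval ones, so it was lower in larva while the gene was higher. In LOC100578727 the leader was a 2949-base sequence in larva, with 69.6% there and 28.2% in adult, and a 2829-base sequence in adult. LOC409636 had all 310 larval counts on an 801-base sequence, which held 46.3% of its 80 adult counts. In LOC412528 all 28 adult counts lay on a 1587-base sequence that held 22.2% of the larval counts.

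The leader also differed in LOC725127, where the 1161-base sequence held 51.2% in larva and 28.9% in adult, and in LOC551109, where the 2385-base sequence held 51.7% and 29.7%. LOC100576863 went from 21.1% of adult to 64.4% of larval counts on a sequence 3 bases longer than the adult leader, and LOC409511 from 24.7% to 52.2% on its 801-base sequence. The larval leader was the longer sequence in 5 of the 11 genes and the shorter in 6. Without a change of leader, LOC408579 had 97.0% of larval and 69.4% of adult counts on a 2664-base sequence, and LOC408623, with 13 coding sequences, 78.0% and 47.6% on a 1092-base sequence. kallisto assigns pairs to overlapping coding sequences by estimation, the files give no error for it, and these shares have no replicate.

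**Figure D4:**
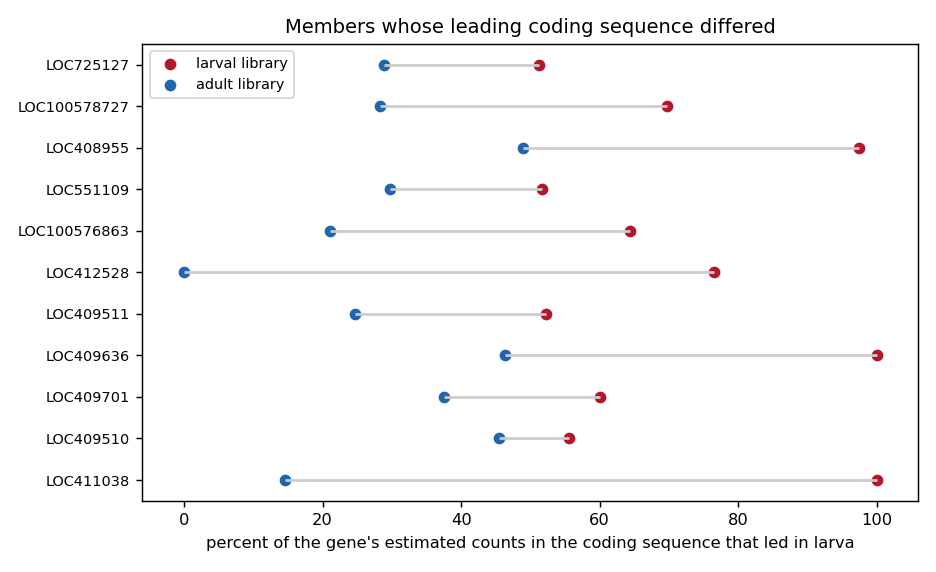
Percent of a gene's estimated counts held by the coding sequence that led in the larval library (x axis), in the larval (red) and adult (blue) library, for the 11 genes whose leading coding sequence differed. LOC412528 and LOC411038 show the widest distances.

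The genes were unevenly spread over the genome. All 270 lay on the 16 chromosomes, with 5 to 39 genes on each. The chromosome that carries Br-c, the ecdysone-responsive transcription factor Broad, and Vhdl, which encodes a lipid-carrying hemolymph protein, held 26 of them. It was singled out after the values were seen. Br-c and Vhdl serve only to identify it, and a link to either was not tested. These made up 8.58% of its 303 genes with at least 10 counts, against 0.899% to 4.65% on the other 15 chromosomes. The median log2 fold of larva over adult of all its compared genes was 0.05 (quartiles -0.88 and 1.01), within the range of medians of -0.10 to 0.11 on the others. Genes far higher in adult made up 4.62% there, against 2.14% to 5.22% on the others.

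The 26 genes on this chromosome ran from 12.4 to 794 larval CPM, with a median fold of 6.94, beside 6.50 for the whole group. They include LOC102654448 and LOC409827, both below 1 adult CPM. LOC409827 lies between LOC409826, with 143 larval and 2 adult counts, and NPF, the neuropeptide F gene, with 20 and 2. Of the 26 genes, 9 adjoined another of the group. Under every alternative scaling, prior and threshold tried, the share on this chromosome was higher than on any other. The narrowest ratio came at a 2-fold rule, 17.2% against at most 14.3%. The lowest share came at an 8-fold rule, 3.63% against at most 1.68%. All these alternatives reuse the same counts, so they are not separate evidence.

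Neighbouring genes were more often in the group together than other genes were beside it. A direct neighbour in the group was found for 37 of the 270 genes (13.7%), against 5.05% of the other locus-number genes with at least 10 larval CPM. The genes far higher in adult adjoined each other as often, in 16.05% of cases, so adjacency was not particular to the larval side. They adjoined a gene of the larval group in 3.70% of cases. With TPM the 2 shares were 6.25% and 2.39%, and with a minimum of 50 CPM 6.74% and 3.63%. The 37 genes formed 17 runs, 3 of them of 3 genes and 14 of 2 genes.

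Beyond the runs, the neighbours showed a small difference in level. The 436 direct neighbours outside the group had a median log2 fold of larva over adult of 0.20 (quartiles -0.55 and 0.87), against -0.06 (quartiles -0.78 and 0.59) for the 8503 genes outside it that had at least 10 counts in all and a place in gene order. Of these neighbours, 22 exceeded the adult level at least 4-fold, 5.05% against a background of 2.29%. On the adult side 26 did so, 5.96% against 7.87%. Spans of 63 genes of the group (23.3%) overlapped that of another coding gene, against 30.4% of the other genes. The library kit marks strand, but no source states whether the counting used it, so overlapping and antisense genes cannot be separated.

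**Figure D5:**
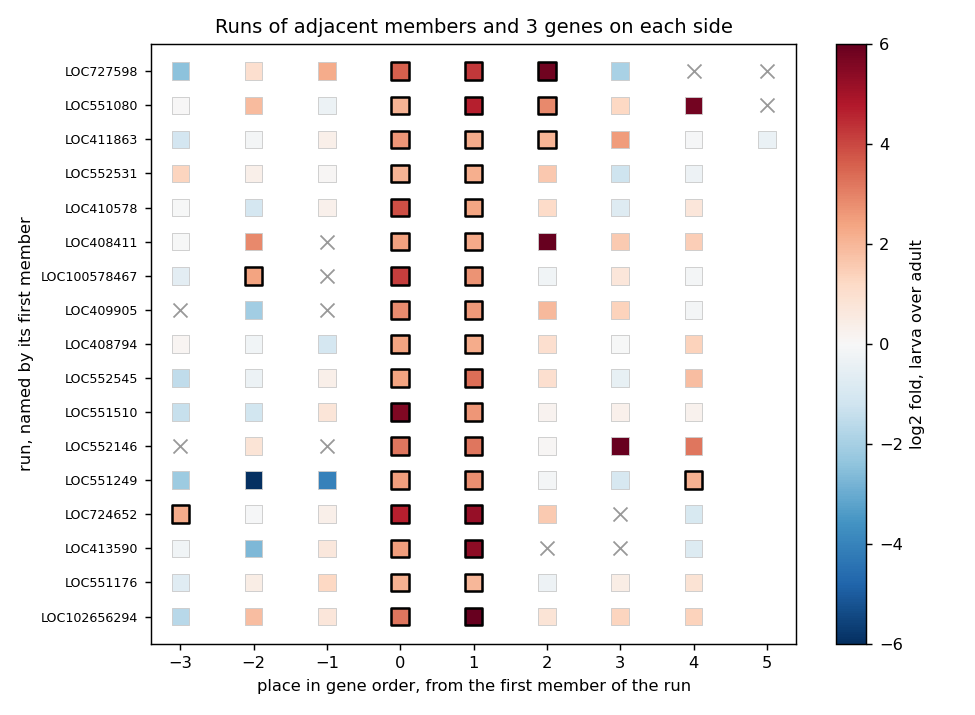
Log2 fold of larva over adult (colour) for the 17 runs of adjacent genes of the group and 3 genes on each side, with the place in gene order on the x axis. Black frames mark genes of the group, and crosses mark genes with fewer than 10 counts. The colour falls off next to most runs, while Vhdl stands dark beside LOC408411 and LOC408412.

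Among the runs of 3, the one with the highest summed larval level lay in a row of 11 adjacent genes whose longest coding sequences all measured 1494 to 1506 bases. LOC727598 stood at 21.6 against 1.78 CPM, LOC726690 at 461 against 24.4 CPM and LOC112939925 at 130 against 2.26 CPM in the larval and adult libraries. The ratios were 12.1, 18.9 and 57.7. The row includes Cyp6as5, and LOC551028, the direct neighbour of LOC112939925, has the synonym CYP6AS13. Both names belong to the CYP6AS cytochrome P450 enzymes, a subfamily known in bees for oxidising plant flavonols. No such name is given to the 3 genes of the run.

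The members of this row differed in side. LOC551028 had 502 adult and 108 larval counts, a log2 fold of larva over adult of -1.93, and Cyp6as5 had 23 and 3. LOC412209 was on the larval side at 2880 larval and 1764 adult counts, a log2 fold of 0.99. LOC413908 had 9 larval and 2 adult counts, and the other 4 genes of the row had at most 1 count in each library. Only the 3 adjacent genes in the middle of the row thus met the rule. Genes of a row of like length can share reads. LOC726690 and LOC112939925, with 1 coding sequence each, had whole counts within 0.001 in both libraries. Estimation can give shared pairs wholly to 1 gene, so sharing within the row was not tested by this.

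The other runs of 3 were more mixed in length. LOC551080, LOC724468 and LOC100577769 stood at 93.7, 211 and 37.7 larval CPM, with folds of 4.29, 25.1 and 7.38 and coding lengths of 1275, 2478 and 1263 bases. The gene after the next, LOC102655009, had 68 larval counts and 1 adult count, below the 10 CPM of the rule. LOC411863, LOC409636 and LOC409634 stood at 268, 19.8 and 41.7 larval CPM with folds of 6.35, 4.70 and 4.04. The next gene, LOC102653856, had 113 larval and 23 adult counts, a log2 fold of 2.56, also below 10 CPM. The last 2 genes of that run overlap other coding genes in span.

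Among runs of 2, the highest summed level was that of LOC552531 and LOC409384 at 260 and 884 larval CPM, with folds of 4.31 and 4.59 and lengths of 315 and 1713 bases. LOC410578 stood at 747 against 50.4 CPM and its neighbour LOC410577 at 72.7 against 13.9 CPM. Beside them GstD1, a glutathione S-transferase, had a log2 fold of larva over adult of 1.15. LOC408411 and LOC408412 stood at 12.7 and 539 larval CPM with folds of 5.46 and 4.84. Their neighbour Vhdl had 2746 larval and 25 adult counts. The next 4 genes had log2 folds of larva over adult of 1.18 to 1.57, and after them came LOC551739, also of the group, with 2.96.

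Other pairs were of lower level, and the following were named after their values were seen. LOC724652 stood at 57.3 against 2.26 CPM and LOC408734 at 36.2 against 0.945 CPM in larva and adult, with folds of 25.1 and 37.3. LOC102656294 at 14.4 against 1.52 CPM adjoined LOC102656248 at 31.8 against 0.105 CPM, with folds of 9.31 and 242. In both pairs the spans overlap other coding genes. LOC100578467 and LOC413577 stood at 75.1 and 193 larval CPM with folds of 17.6 and 6.51, without such an overlap. The folds of adjacent genes could thus differ widely within a pair.

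A direct neighbour with a longest coding sequence within 1% of their own length was found for 11 genes of the group (4.07%), against 1.93% of the other locus-number genes. This comparison and the genes named from it were chosen after the values were seen. LOC551176 and LOC725404 both measure 1131 bases, as does LOC551369 beside them. Their larval counts were 439, 348 and 111 and their adult counts 121, 105 and 56. The estimated counts of LOC551176 and LOC725404 were not whole, so some read pairs were divided with other sequences and their split between the genes is uncertain. LOC726189, with 702 bases, had 1873 larval and 310 adult counts, while its neighbour Cpap3-d, a chitin-binding cuticular protein gene with 699 bases, had 52 and 476, on the opposite side.

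Few genes of the group had counts that showed divided pairs. Of its 139 genes with 1 coding sequence, 4 had counts that were not whole within 0.001 in 1 or both libraries, namely LOC409981, LOC551176, LOC724156 and LOC725404. That is 2.88%, against 1.79% (55 of 3066) of the other locus-number genes with at least 10 larval CPM. Genes with such counts share pairs with the coding sequence of another gene, and their values are uncertain to that extent. Shared pairs given wholly to 1 gene, and fractions rounded off in large counts, escape this measure. For genes with several coding sequences this measure cannot separate sharing within the gene from sharing with another gene.

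Many of the strongest genes stood alone. LOC410747 lay between LOC552425 with 4 larval and 6 adult counts and LOC552395 with 6 and 6, whose lengths of 1899 and 1905 bases are close to its own 1935. Its 9439 larval counts thus stood between genes that were near 0 in both libraries. The span of LOC410747 overlaps that of another coding gene. LOC410380 had neighbours with lower larval than adult levels, LOC408384 with a log2 fold of larva over adult of -1.13 and LOC726092 with -3.07. LOC408388 and LOC550827 also lay between genes with lower larval than adult levels, with log2 folds of -0.38 and -2.12 beside LOC408388 and -0.85 and -0.65 beside LOC550827.

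The neighbours of other strong genes varied. LOC408579 lay between LOC410696 and LOC408578, with log2 folds of larva over adult of 2.19 and 1.97. LOC410696 was 4-fold higher in larva but had only 95 larval counts, and LOC408578 had 5087. LOC550965 lay beside LOC412858, which had 32 larval and 0 adult counts. LOC724900 adjoined Cpap3-b, a cuticular protein gene of the same family as Cpap3-d, which had 448 larval and 87 adult counts, a log2 fold of larva over adult of 2.64, and met the same size rule. LOC410685 adjoined otd2, a homeobox gene of the orthodenticle type, with 17 counts in each library.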

How the data were processed

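Polyadenylated RNA of 2 hemocyte samples was sequenced in pairs of 150 bases per read, per the labels' protocols. The authors deposited estimated counts per RefSeq coding sequence, made with kallisto per the submitters' processing notes. The authors' TPM stood beside them, per the file headers. No version, index or genome build is given in the sources used. Estimated counts of 23471 coding sequences were summed to 9935 genes by protein identifier, all of which matched a RefSeq gene table of Amel_HAv3.1, and rounded. That table served only for names, neighbours and overlaps. It placed 9898 genes in order. Library sizes were scaled with TMM from genes whose counts in the 2 libraries summed to 10 or more (edgeR 4.0.16, R 4.3.3), with factors of 0.886 (larva) and 1.13 (adult). These factors follow the rule for the group, while the planned setting with all genes became the alternative. Ratios are plain ratios of scaled CPM with Clopper-Pearson intervals, and folds add 0.5 counts. Since PCR copies of a molecule are counted apart, intervals and floors cover counting error alone. A zero was set at 3 counts for bounds. Other steps used pandas 2.3.3, scipy 1.17.1 and numpy 2.4.6 under Python 3.11.15, and the size rule and intervals were tested on simulated data. Named were the 20 genes with the widest fold, the 15 highest in larva, runs of 3, the 3 highest pairs, 8 changes of leader and 3 genes on each side of each threshold. The members, lists and comparisons were chosen with earlier results of these data known. Searches in protein and promoter sequences were not run.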

Additional observations from a re-analysis of the deposited data

How the results depend on the processing

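No paired analysis was possible because each group has 1 library. The group had 128 genes with TPM, 1045 at 2-fold, 97 at 8-fold and 178 at 50 CPM, against 270. Genes below 1 adult CPM numbered 43 at 5 CPM and 3 at 50 CPM, against 23. The share of larval counts was 4.90% with plain totals, 6.87% with RLE, 5.79% with upper-quartile factors, 3.00% with TPM, 7.46% from the coding sequence with the most counts, 31.0% at 2-fold, 1.90% at 8-fold, 6.72% at 5 CPM, 6.50% at 50 CPM and 6.12% with the interval bound at 4-fold, against 6.69%. The median coding length was 1347 bases at 2-fold. Genes with 1 coding sequence numbered 89 with plain totals, 62 with TPM, 621 at 2-fold and 38 at 8-fold, against 139. Genes next to another of the group numbered 8 with TPM, 278 at 2-fold, 9 at 8-fold and 12 at 50 CPM, against 37. Changes of threshold move these counts by construction. For the 60 named genes, 479 log2 folds under 8 alternatives gave 0 on the other side of 0. These genes were selected at 4-fold on the same counts, so a change of side was hardly possible and nothing is read from it. Outside the counting interval were 42 of 59 with TPM, 35 of 60 with plain totals, 21 with upper-quartile factors, 17 from the top coding sequence, 3 with a prior of 5 counts, and 0 with RLE, a prior of 0.1 or TMM from all genes. TMM factors from all genes, planned as the main setting and made an alternative after seeing the data, gave 271 genes. Protein similarity and sequence motifs were planned and not run. Depth limits the 8 genes with 3 or fewer adult counts.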
